A study of Mus musculus with 24 samples.

Results

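The collagen genes were the 42 genes, of 18820 with a probeset naming a single gene, whose symbol has the form of a collagen chain (Col, a type number, a and a chain number). They were followed across 8 mouse cell types with 3 arrays each, 24 in all. The platform was the Affymetrix Mouse Gene 1.0 ST array, whose probes are spread over a gene's exons. Where a gene had several probesets, which was so for 4 of the 42, the brightest on average was used. Col9a3 and Col7a1 lie on probesets that name another gene as well, so they are not among the members. The rule used symbols alone and no measured value apart from that choice of probeset.

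The study set microglia-like cells derived from induced pluripotent stem cells beside their stem cells, primary microglia and other myeloid cells. Induced pluripotent stem cells (iPSC, labelled adult), GFP-positive cells derived from such cells (iPS-MG, labelled adult), neonatal microglia of postnatal day 5 (neo-MG) and adult microglia (ad-MG) carried the strain label C57BL/6NCr - Cx3cr1gfp/+. The strain label C57BL/6NCr alone was given for adult dendritic cells (DC), for adult macrophages of bone marrow (bm-Mac) and of the peritoneum (p-Mac), and for E15-E18 neural stem cells (NSC). The gfp allele of Cx3cr1 was thus present in all microglial and iPSC groups and in none of the others. The stem cells had grown on a feeder layer of inactivated C57Bl/6 embryonic fibroblasts with leukaemia inhibitory factor. GM-CSF, IL-3 and M-CSF were given to cells that the protocols name gMG without explaining the term; DMEM/F12 with serum is the medium stated for the rest. The isolation of the primary cells is not given in the sources used here, nor is it stated that replicates are different animals or cultures. The p-values therefore rest on a spread between arrays that could be technical only. Levels are deposited log2 values, written as mean ± SD over 3 arrays. Differences are log2 differences ± standard error (SE), where 1 is 2-fold. A gene was called higher or lower at a Benjamini-Hochberg adjusted p under 0.05, over all 18820 genes, together with a log2 difference of at least 1. Only values of the same gene were compared between arrays, since probes of different genes differ in brightness, and with no detection calls no level could be called absent.

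The labels were checked against marker lists, as the mean log2 level over each list. Pluripotency markers lay at 12.24 to 12.33 on the iPSC arrays and at no more than 7.19 elsewhere, and neural progenitor markers lay at 10.75 to 10.79 in NSC and at no more than 8.79 elsewhere. Pan-myeloid markers lay at 12.09 or higher in the 6 groups of microglia, macrophages and dendritic cells and at no more than 7.70 in iPSC and NSC. Microglia markers were between 10.29 and 11.07 in neo-MG, iPS-MG and ad-MG, and peritoneal macrophage markers between 10.58 and 10.61 in p-Mac. Dendritic cell markers lay at 9.84 to 9.90 in DC, below the 10.03 to 10.14 of p-Mac. Within groups, Pearson's r across genes was 0.9952 to 0.9986, no pair of arrays held identical values, and array medians over all probesets ran from 7.96 to 8.21 with p-Mac highest, while over the genes analysed the ad-MG arrays had the highest medians. The collagen genes themselves carried no single profile: Col12a1, taken as their marker, was highest in ad-MG, whereas the highest mean lay in p-Mac for 23 members.

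Collagens are secreted or membrane-bound proteins in which chains wind into a triple helix, and each type is made of 1 or more kinds of chain. Fibrillar collagens (types I, II, III, V, XI, XXIV and XXVII) build the cables of connective tissue, and fibril-associated collagens such as type XII sit on their surface. Type IV forms the sheet of basement membranes, type VI forms beaded filaments, and types VIII and X form short-chain networks. In the brain, fibrillar collagens are known mainly from the meninges and the walls of larger vessels, where fibroblasts and mural cells make them, and type IV lies in the basement membrane of capillaries.

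Start regions of 4 collagen genes that were higher in adult than in neonatal microglia are shown for the contrast between GC-rich and AT-rich sequence upstream of genes that moved the same way. Each run holds the 250 bases before the annotated start of the gene, 5′ to 3′ on the gene's strand, from RefSeq on GRCm38.p6. Capitals mark the letters TATAAA, called a TATA box here. They also mark the CCAAT box, spelled as its name. The last motif marked is the GC box, spelled GGGCGG. All were searched as exact letters on both strands, so a box on the other strand appears as its reverse complement. None of these motifs contains another, and a match is a string of letters, not a site of binding.
Col1a2, chr6:4505368-4505617, plus strand: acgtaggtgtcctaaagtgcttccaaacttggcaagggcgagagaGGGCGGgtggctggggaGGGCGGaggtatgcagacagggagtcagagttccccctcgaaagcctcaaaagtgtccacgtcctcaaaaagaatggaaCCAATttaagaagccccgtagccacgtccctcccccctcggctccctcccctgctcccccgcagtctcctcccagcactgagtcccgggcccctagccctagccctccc
Col3a1, chr1:45311288-45311537, plus strand: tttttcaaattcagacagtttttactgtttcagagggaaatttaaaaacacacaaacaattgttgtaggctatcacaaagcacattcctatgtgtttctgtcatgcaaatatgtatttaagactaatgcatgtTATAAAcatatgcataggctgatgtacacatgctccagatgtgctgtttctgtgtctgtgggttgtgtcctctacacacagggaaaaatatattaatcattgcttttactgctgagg
Col8a1, chr16:57754738-57754987, minus strand: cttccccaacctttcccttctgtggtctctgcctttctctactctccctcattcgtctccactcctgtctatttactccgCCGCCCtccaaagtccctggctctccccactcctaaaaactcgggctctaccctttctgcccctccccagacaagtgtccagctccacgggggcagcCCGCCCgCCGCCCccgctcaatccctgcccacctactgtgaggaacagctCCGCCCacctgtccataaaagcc
Col10a1, chr10:34389731-34389980, plus strand: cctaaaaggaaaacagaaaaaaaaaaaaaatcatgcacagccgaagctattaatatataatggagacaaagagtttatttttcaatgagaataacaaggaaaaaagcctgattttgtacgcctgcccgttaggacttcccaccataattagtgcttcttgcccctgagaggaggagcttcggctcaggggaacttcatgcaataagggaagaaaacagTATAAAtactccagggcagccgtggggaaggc

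The Col1a2 window was 62% G or C and held a CCAAT box 109 to 105 bases before the start and GC boxes 205 to 200 and 188 to 183 bases before it. The Col8a1 window, at 60.8% G or C, held 4 GC boxes, all on the other strand. The Col3a1 window was 35.2% G or C with a TATA box 117 to 112 bases before the start. The Col10a1 window was 41.6% G or C with a TATA box 32 to 27 bases before the start, and lies between the ends of another gene, Nt5dc1. The start regions available here covered 34 of the 42 members, including 8 of the 12 that were higher in adult microglia. A TATA box stood in 2 of the 9 windows of those 8 genes (22.2%), in 10.7% of the windows of the other collagen genes and in 12.4% of 32851 windows of all genes. A CCAAT box stood in 33.3%, 32.1% and 33.8% of these sets. A GC box stood in 55.6% of the windows of the genes higher in adult microglia and in 57.1% of those of the other collagen genes, against 32.7% of all windows.

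Adult microglia had the highest level of 16 of the 42 members. Against neonatal microglia 12 of 42 (28.6%) were called higher and 0 lower, where 5.71% of all genes were called, 4.43% higher and 1.28% lower. The rise reached 22.9-fold for Col12a1, 12.9-fold for Col8a1, 8.60-fold for Col1a2 and 6.79-fold for Col1a1. The median difference was 0.14 over the collagen genes and -0.06 over all genes. When each array was centred on its median, which shifted this comparison by -0.15, these medians were -0.0046 and -0.21, and 12 members were again called.

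**Figure D1:**
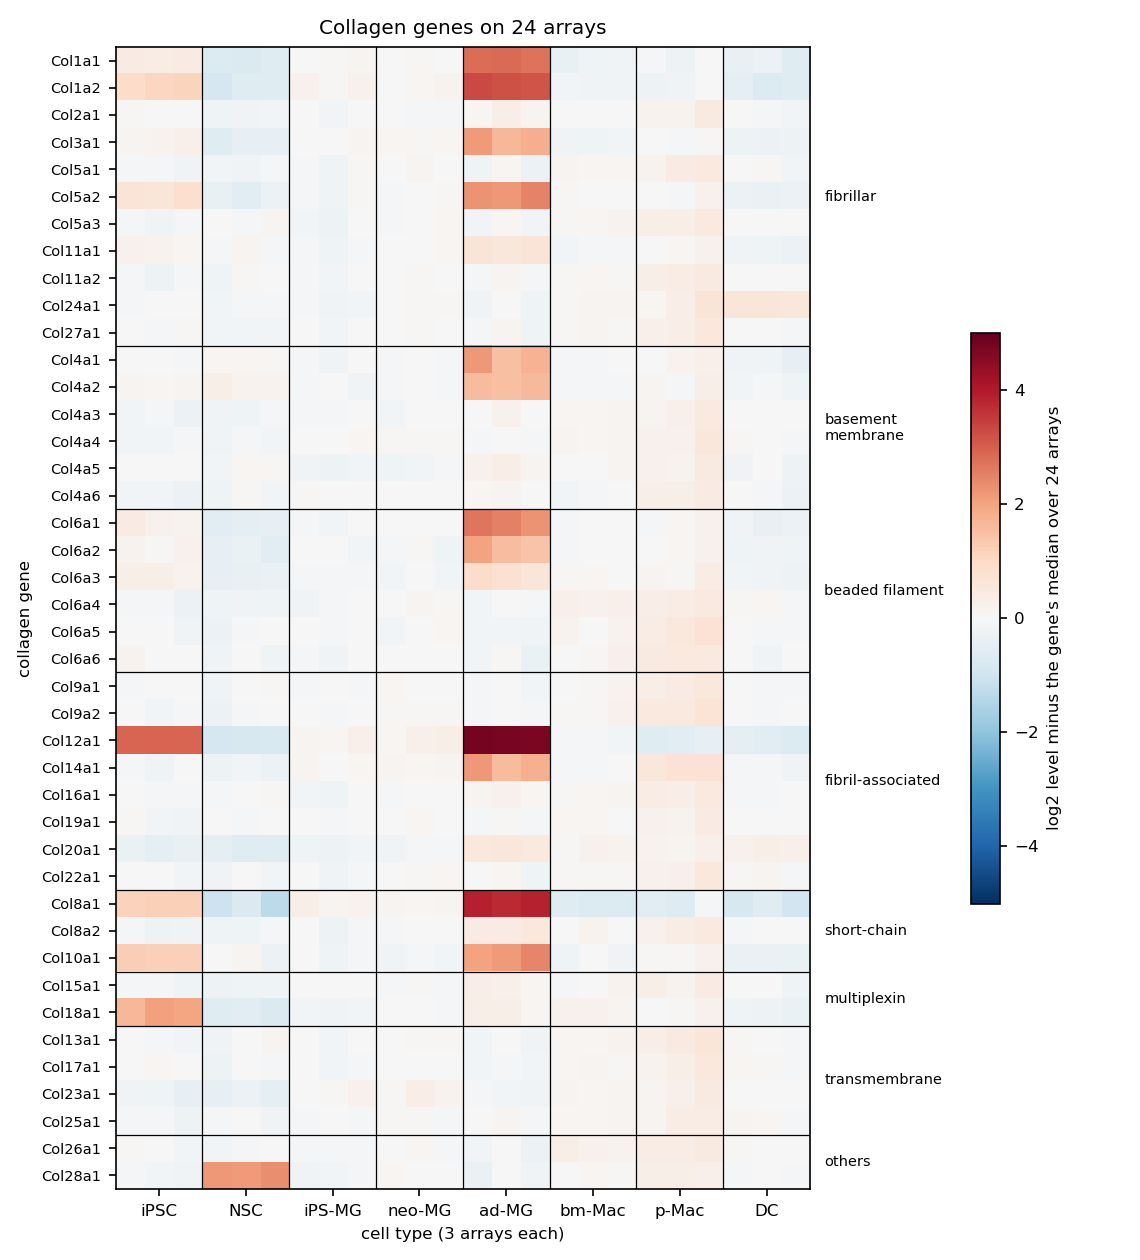
Level of 42 collagen genes (rows, by structural class) on 24 arrays (columns, by cell type). Colour shows the log2 level minus the gene's own median over the arrays, from -5 to 5, and cannot be compared as a level between genes. The ad-MG columns hold the deep red rows, Col12a1 and Col8a1 also stand out in iPSC, Col18a1 is red in iPSC, and Col28a1 is red in NSC.

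Of the fibrillar chains, 4 of 11 were higher in adult microglia: the chains of type I (Col1a1 and Col1a2), Col3a1 and Col5a2. Type I is the main collagen of skin, bone and tendon. Col1a1 lay at 12.38, 12.45 and 12.32 on the ad-MG arrays and at 9.60, 9.64 and 9.61 on the neo-MG arrays. Its difference was 2.76 ± 0.075 (limma, adjusted p = 1.68e-20). Col1a2, which encodes the second chain of the same trimer, read 12.45, 12.33 and 12.30 in ad-MG against 9.17, 9.27 and 9.32 in neo-MG, a difference of 3.10 ± 0.078 (limma, adjusted p = 4.19e-21). No array of either chain in neo-MG came within 2 log2 units of any in ad-MG.

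Col3a1, the chain of type III collagen of vessels and soft organs, lay at 10.94, 10.47 and 10.65 in ad-MG and between 8.89 and 8.94 in neo-MG. The difference was 1.77 ± 0.083. Col5a2, a chain of the type V collagen found inside type I fibrils, lay at 10.10, 10.05 and 10.37 against 7.78, 7.84 and 7.92, a difference of 2.33 ± 0.089 (limma, adjusted p = 2.26e-17). Its partner Col5a1 did not move with it. On the probeset used, Col5a1 was 8.48 ± 0.21 in ad-MG and 8.68 ± 0.076 in neo-MG (difference -0.20 ± 0.088, limma adjusted p = 0.0724), with overlapping arrays. A second Col5a1 probeset, not used because of its lower mean, gave 0.47 ± 0.070 (limma, adjusted p = 2e-05 over all probesets), so the probesets of this gene disagreed in direction. Col5a3 differed by -0.06 ± 0.076, Col11a1 by 0.58 ± 0.064 and Col11a2 by -0.02 ± 0.072. Of these, Col11a1 passed the adjusted p (3.2e-08, limma) without reaching 2-fold, and the sign for Col11a2 turned when ad-MG replicate 1 or 3 was left out. The other fibrillar chains, Col2a1, Col24a1 and Col27a1, were not called.

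The fibril-associated chains held the largest rise of all members. Col12a1 encodes type XII collagen, which coats type I fibrils in dense connective tissue. It lay at 12.62, 12.60 and 12.56 in ad-MG and at 7.96, 8.11 and 8.16 in neo-MG. The difference was 4.52 ± 0.067 (limma, adjusted p = 6.56e-25). Col14a1, of the related type XIV, lay at 10.22, 9.66 and 9.82 against 8.20, 8.15 and 8.19, a difference of 1.72 ± 0.093 (limma, adjusted p = 2.89e-14). These were 2 of 8 measured chains of the class. Of the remaining ones, Col20a1, named after its values were seen, passed the adjusted p at 0.65 ± 0.061 without reaching 2-fold, and both of its probesets pointed the same way. The type IX chains Col9a1 and Col9a2, known from cartilage, each differed by -0.12 and did not pass.

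Of the short-chain network genes, 2 of 3 were called higher. Col8a1, a chain of the type VIII collagen of the cornea and of vessel walls, lay at 12.21, 12.06 and 12.19 in ad-MG and at 8.45, 8.44 and 8.49 in neo-MG. The difference was 3.69 ± 0.12 (limma, adjusted p = 4.17e-19). Col8a2, the other type VIII chain, lay at 8.05 ± 0.063 against 7.59 ± 0.047, and its difference of 0.46 ± 0.077 passed the adjusted p (1.95e-05, limma) but not the 2-fold minimum. Col10a1, the collagen of cartilage that is turning to bone, lay at 9.21, 9.32 and 9.65 against 7.02, 7.12 and 7.04, a difference of 2.33 ± 0.097 (limma, adjusted p = 1.07e-16). Of 9 osteoblast and chondrocyte markers measured, 1 (Alpl, 1.33 ± 0.083) was called higher in ad-MG. Comp (0.63), Acan (0.41), Sox9 (0.39) and Sp7 (0.36) passed the adjusted p without reaching 2-fold. The rest of the list, Bglap (-0.18), Matn3 (-0.10), Ibsp (-0.02) and Matn1 (-0.0037), did not pass.

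Basement membrane and beaded filament chains moved in part of each class. Col4a1 lay at 10.56, 9.92 and 10.15 in ad-MG against 8.30, 8.38 and 8.31 in neo-MG, and Col4a2 lay at 9.76, 9.69 and 9.82 against 8.14, 8.23 and 8.11. These chains form the common type IV collagen of basement membranes, and their differences were 1.88 ± 0.10 and 1.60 ± 0.070. The 4 other type IV chains were not called, and of them Col4a5 passed the adjusted p alone at 0.37. Col6a1 lay at 11.05, 10.90 and 10.62 against 8.33, 8.39 and 8.39, and Col6a2 at 10.81, 10.34 and 10.22 against 8.69, 8.83 and 8.55. The differences were 2.49 ± 0.090 and 1.77 ± 0.10. Col6a3, the third chain of the classical type VI trimer, lay at 9.16, 8.98 and 8.85 against 8.08, 8.20 and 8.10, above all neo-MG arrays but at 0.87 ± 0.075, short of 2-fold. Col6a4, Col6a5 and Col6a6 differed by -0.13 to -0.16 and were not called. No multiplexin (0 of 2), transmembrane collagen (0 of 4) or other chain (0 of 2) was called.

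**Figure D2:**
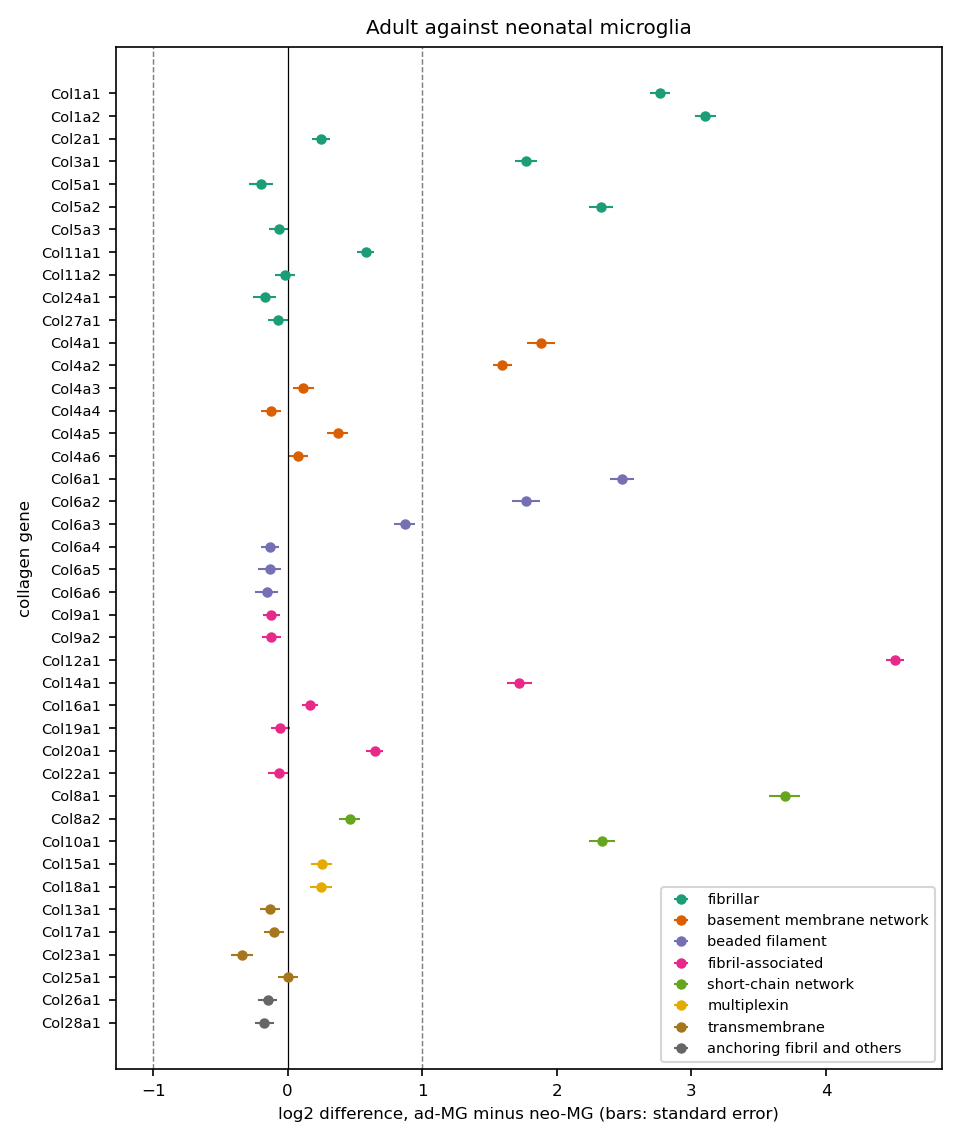
Log2 difference of each collagen gene, ad-MG minus neo-MG (horizontal axis), with bars for the standard error and colours for structural class; dashed lines mark 2-fold. Col12a1 lies at 4.52 and Col8a1 at 3.69, 12 points lie right of the upper dashed line, and the lowest point is Col23a1 at -0.34.

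The 3 ad-MG arrays differed somewhat among themselves. Replicate 1 held the highest value for 8 of the 12 called members, replicate 2 for 1 and replicate 3 for 3. Leaving out any 1 ad-MG or neo-MG array left the same count of 12. Without the 2-fold minimum, 23 members passed, 21 higher and 2 lower, where 44.3% of all genes passed, 19.9% higher and 24.4% lower.

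Among the members, 8 pairs are direct neighbours in RefSeq. In ad-MG against neo-MG both genes were called in 3 pairs: Col3a1 with Col5a2 on chromosome 1, Col6a2 with Col6a1 on chromosome 10, and Col4a1 with Col4a2, whose gene models overlap, on chromosome 8. Neither gene was called in the other 5, which include Col4a4 with Col4a3 and Col4a6 with Col4a5. Neighbouring pairs among all genes were not counted, so these counts have no background and a role of position was not tested. In NSC against iPSC both Col5a2 (-1.10 ± 0.089) and Col3a1 (-0.67 ± 0.083) were lower, and only Col5a2 reached 2-fold.

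Many fibroblast and mural cell markers and some endothelial ones were also higher in ad-MG, and their part in the collagen result was not tested. Of all genes, 4.43% were called higher in ad-MG than in neo-MG and 1.28% lower. In bulk RNA, fewer cells of a type and less RNA per cell cannot be told apart. The marker lists were chosen with earlier results of these data known, so their counts are descriptive. Of 16 fibroblast markers, which include no collagen, 15 were called higher in ad-MG than in neo-MG with a median difference of 2.96, among them the small proteoglycans Ogn (4.77 ± 0.083), Fmod (4.32 ± 0.096), Lum (3.42 ± 0.11) and Dcn (3.13 ± 0.083) and the receptor Pdgfra (1.24 ± 0.095). The mean level of that list was 10.74 to 10.81 on the ad-MG arrays, 9.10 to 9.21 in iPSC, at most 8.02 in neo-MG, 8.12 to 8.15 in iPS-MG and at most 7.97 in the other groups. Of 10 mural cell markers 6 were higher, with Tagln at 3.80 ± 0.10, Pdgfrb at 3.19 ± 0.071 and Acta2 at 3.19 ± 0.087, and the pericyte markers Rgs5 at 2.03 ± 0.070 and Cspg4 at 1.81 ± 0.085, while Kcnj8 and Abcc9, also known from pericytes, differed by -0.13 and 0.05. The list lay at 9.43 to 9.53 in ad-MG against 7.82 to 7.91 in neo-MG. Of 10 endothelial markers 2 were higher (Cdh5 at 2.64 and Emcn at 2.63). Esam (0.79), Tek (0.67), Pecam1 (0.40), Flt1 (0.32), Cldn5 (0.25) and Egfl7 (0.21) passed the adjusted p without reaching 2-fold. Tie1 differed by 0.0079 and did not pass, and Kdr passed in the other direction at -0.63, short of 2-fold. The ad-MG arrays lay at 8.34 to 8.58 for this list and the neo-MG arrays at 7.66 to 7.73. Pan-myeloid markers were at 12.54 to 12.62 in ad-MG and 12.63 to 12.66 in neo-MG, with 0 of 10 called, where 4 of the 10 had an unadjusted p under 0.05 (limma). The astrocyte and oligodendrocyte lineage lists were mixed. Of the astrocyte markers Gja1 was higher (2.93 ± 0.094) and Gfap lower (-1.09 ± 0.095). Among oligodendrocyte lineage markers Pdgfra and Cspg4, named above, were higher, while Olig1 and Olig2 differed by -0.44 and -0.30. The microglia markers Cx3cr1 (2.10 ± 0.068), Tmem119 (1.68 ± 0.086) and Olfml3 (1.14 ± 0.072) were higher. Fcrls (0.64), P2ry13 (0.56) and P2ry12 (0.32) passed the adjusted p without reaching 2-fold, and Siglech (0.16) did not pass. Sall1 passed in the other direction at -0.60, short of 2-fold, and Gpr34 (-0.17) did not pass.

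**Figure D3:**
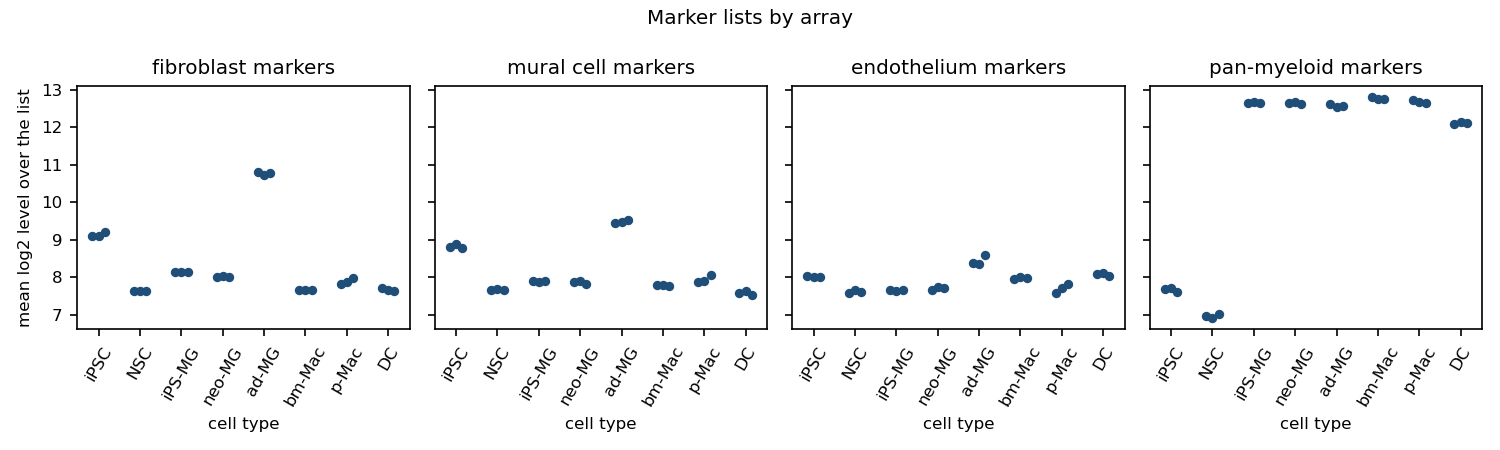
Mean log2 level over 4 marker lists (fibroblast, mural cell, endothelium and pan-myeloid) on each of the 24 arrays, by cell type; 1 point is 1 array. The ad-MG arrays are the highest for the first 3 lists, at 10.74 to 10.81 for fibroblast markers, with iPSC next for fibroblast and mural cell markers, and the 6 myeloid groups lie together for pan-myeloid markers.

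Genes that process, crosslink, bind and cut collagen moved as well, where 4.43% of all genes were higher in ad-MG than in neo-MG and 1.28% lower. Among 21 measured genes for chain processing, 7 were higher in ad-MG than in neo-MG and 0 lower: Plod2, which hydroxylates lysine in the tail ends of collagen, at 4.20 ± 0.075, the propeptide cleavage enhancer Pcolce at 3.20 ± 0.085 and the prolyl hydroxylase subunit P4ha3 at 2.90 ± 0.095 were the highest. The collagen chaperone Serpinh1 was among them at 2.11 ± 0.073. Of 5 crosslinking genes 4 were higher: the lysyl oxidases Loxl2 (3.66 ± 0.089), Lox (2.40 ± 0.097) and Loxl1, and the transglutaminase Tgm2 (2.74 ± 0.088). Lox lay at 12.84 ± 0.072 in ad-MG and 10.43 ± 0.062 in neo-MG. Loxl4 was the member of that list not called.

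Collagen receptors split. The integrin subunits Itga1 (3.14 ± 0.096) and Itga11 (2.92 ± 0.11) and the discoidin receptor Ddr2 (3.13 ± 0.064) led the 5 of 10 that were higher. The inhibitory receptor Lair1, carried by leukocytes, lay at 10.91 ± 0.20 in ad-MG and 11.61 ± 0.048 in neo-MG, a difference of -0.70 ± 0.085 that stayed under 2-fold. Mrc1, an endocytic receptor of macrophages, differed by -0.28 ± 0.10. Among 9 degrading enzymes, the metalloproteinases Mmp2 (3.80 ± 0.086), Mmp14 (1.79 ± 0.091) and Mmp16 (1.10 ± 0.090) were higher and the collagenase Mmp13 was lower, at 8.29 ± 0.26 against 10.65 ± 0.093 (difference -2.36 ± 0.10, limma adjusted p = 3.16e-16).

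**Figure D4:**
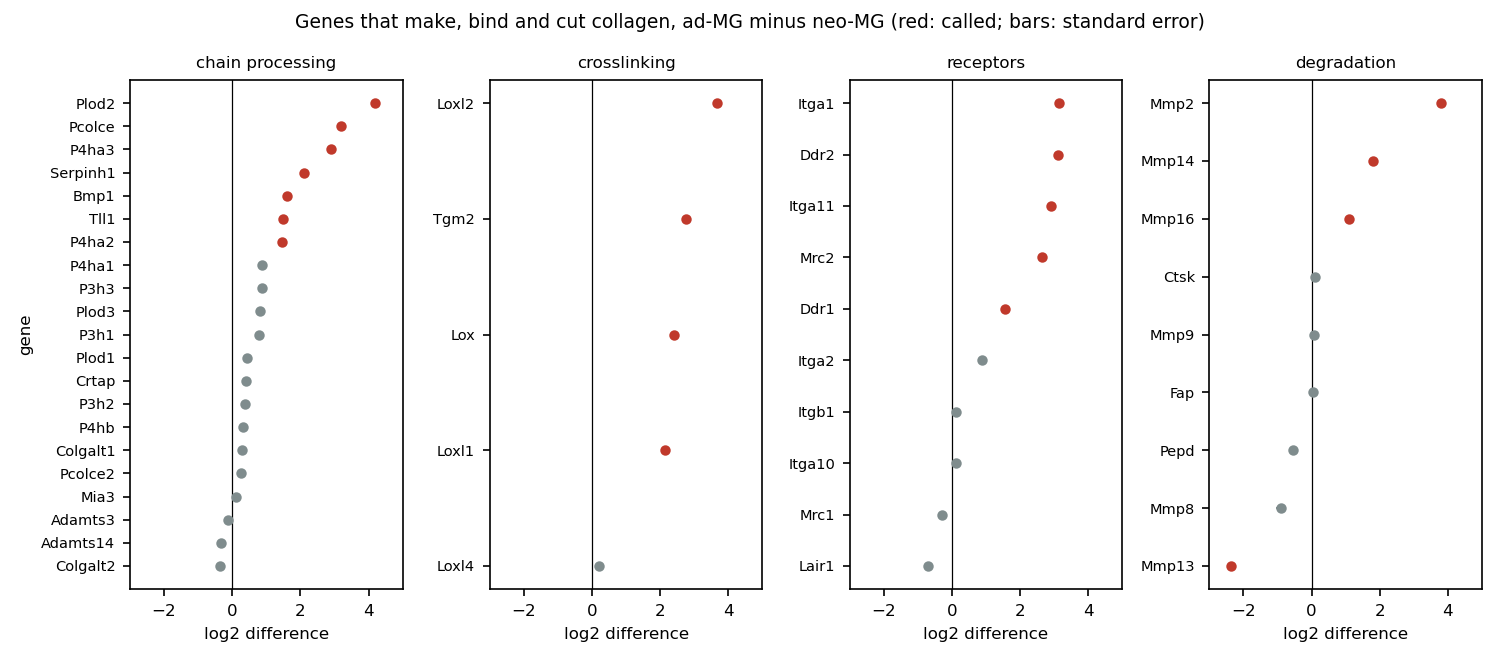
Log2 difference, ad-MG minus neo-MG, of 45 genes that process, crosslink, bind or cut collagen, in 4 panels; red points were called, grey points were not, and the standard error bars are mostly shorter than the points. Plod2 at 4.20, Loxl2 at 3.66, Itga1 at 3.14 and Mmp2 at 3.80 lead their panels, and Mmp13 at -2.36 is the called gene on the lower side.

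Collagen genes were also called higher in adult microglia against each of the other 6 cell types. These comparisons share the 3 ad-MG arrays, so they are given side by side and not counted as separate support. The count called higher was 12 of 42 against iPS-MG, where 4.28% of all genes were higher in ad-MG, 12 against bm-Mac (5.38%), 12 against DC (6.13%), 12 against p-Mac (7.5%) and 12 against iPSC (10.9%, and 9.87% lower). Against NSC, where 18.6% of all genes were called, 11% higher and 7.63% lower, it was 14, with Col20a1 (1.09 ± 0.061) and Col6a3 (1.12 ± 0.075) beside those named above. When arrays were centred on their medians these 2 fell short of 2-fold and 12 were called higher. Lower in ad-MG were Col18a1 against iPSC and Col28a1 against NSC. Col12a1 was 5.55 ± 0.067 above NSC (46.8-fold, limma adjusted p = 1.73e-28), and Col8a1 was 4.84 ± 0.12 above it (28.6-fold). By the adjusted p alone 25 members passed against NSC, where 64.9% of all genes did. In that comparison 13 of 16 fibroblast and 5 of 10 mural cell markers were higher in ad-MG and 0 lower, 9 of 21 processing genes were higher and 2 lower (Colgalt2 at -4.14 and P3h2 at -1.35), and 7 of 9 degrading enzymes were higher.

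Col12a1 gave the widest order of cell types. Its mean level fell from 12.59 ± 0.034 in ad-MG to 10.75 ± 0.017 in iPSC, a step of 1.84 (limma, adjusted p = 1.36e-18), and then to 8.08 ± 0.10 in neo-MG. Neo-MG and iPS-MG (8.01 ± 0.098) did not differ beyond their spread (limma, adjusted p = 0.916). Then came bm-Mac at 7.73 ± 0.038, p-Mac at 7.33 ± 0.090, DC at 7.29 ± 0.11 and NSC at 7.04 ± 0.034. Of these neighbours only p-Mac and DC did not pass the adjusted p (0.634, limma), and the steps from iPS-MG to bm-Mac, bm-Mac to p-Mac and DC to NSC were 0.28, 0.40 and 0.25.

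The type I chains, Col8a1, Col10a1 and Col5a2 also had iPSC as the second group, with ad-MG above iPSC by 2.40 for Col1a1, 2.16 for Col1a2, 2.65 for Col8a1 and 1.61 for Col5a2. For Col10a1 this step was 1.00 ± 0.097 (95% interval 0.80 to 1.20), which is at the 2-fold minimum itself. Below iPSC neighbouring ranks of Col10a1 were not resolved: none of the 5 steps from p-Mac at 7.30 ± 0.095 down to DC at 6.87 ± 0.0062 passed. Further apart in that order, p-Mac lay above bm-Mac by 0.24 ± 0.097 (limma, adjusted p = 0.035). Of the 12 genes called higher in ad-MG than in neo-MG, 9 had iPSC as the next group, 2 had p-Mac (Col14a1 and Col4a1) and 1 had NSC (Col4a2).

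**Figure D5:**
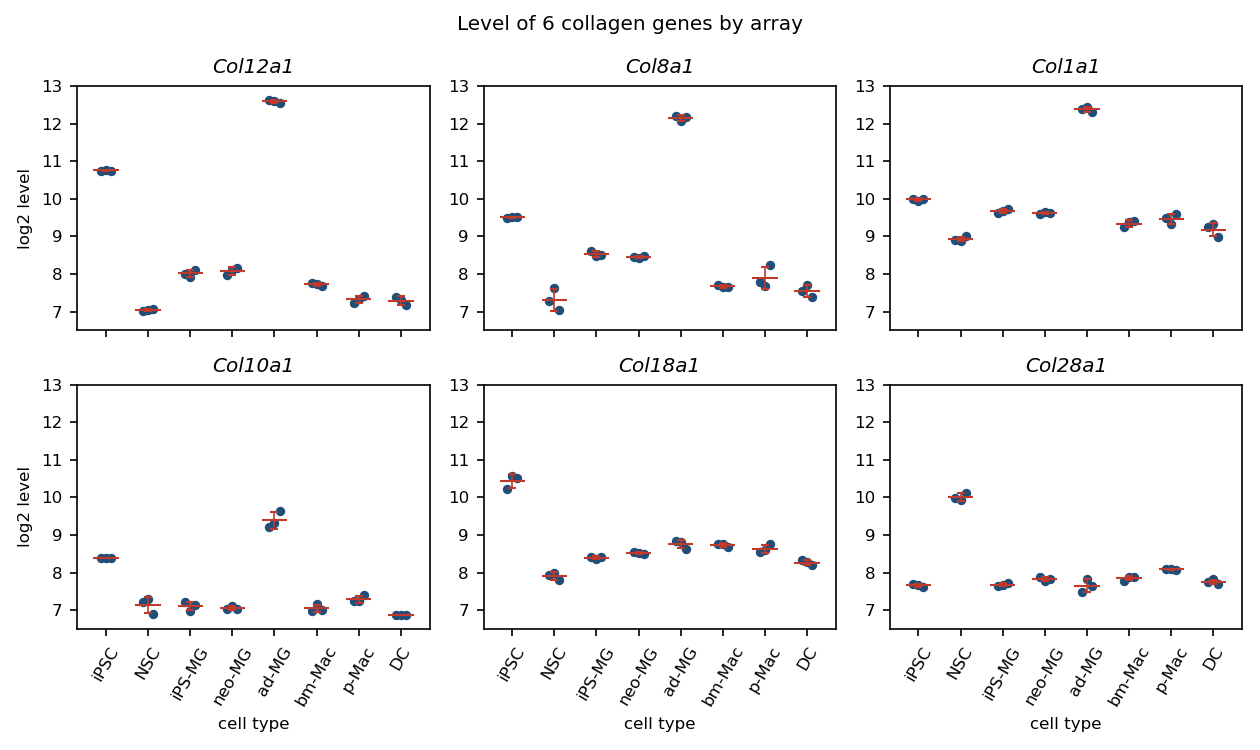
Log2 level of 6 collagen genes by cell type; points are single arrays, horizontal bars are means and error bars are SD over 3 arrays. Col12a1, Col8a1, Col1a1 and Col10a1 are highest in ad-MG and next in iPSC, Col18a1 is highest in iPSC at 10.44, and Col28a1 is highest in NSC at 10.01.

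No collagen gene was called between derived and neonatal microglia. In iPS-MG against neo-MG 0 of 42 members were called, where 0.0266% of all genes were called. With limma 0 members passed the adjusted p alone, where 0.213% of all genes passed, and 3 had an unadjusted p under 0.05. The differences ran from -0.18 for Col24a1 to 0.08 for Col8a1. The 95% intervals of all members lay between -0.35 and 0.32, so a difference of 2-fold lies outside each of them. Of the 16 fibroblast markers, fibronectin (Fn1) was higher in iPS-MG, at 11.93 ± 0.062 against 10.79 ± 0.030, a difference of 1.14 ± 0.053 (limma, adjusted p = 2.17e-13). The collagen-degrading enzyme Mmp2 lay at 9.49 ± 0.043 in iPS-MG against 8.69 ± 0.067 in neo-MG. Its difference of 0.81 ± 0.086 passed the adjusted p (3.56e-06, limma) without reaching 2-fold.

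Between the stem cells and the cells derived from them, 3 collagen genes fell and 0 rose. That is 7.14% of the members, where 22.2% of all genes were called in iPS-MG against iPSC, 10.4% higher and 11.8% lower. Col12a1 went from 10.74, 10.77 and 10.75 in iPSC to between 7.93 and 8.12 in iPS-MG, a difference of -2.74 ± 0.067 (6.68-fold, limma adjusted p = 2.29e-22). Col18a1, whose protein is a basement membrane proteoglycan and the source of endostatin, went from 10.22, 10.58 and 10.52 to 8.42, 8.37 and 8.42, a difference of -2.04 ± 0.080. Col10a1 went from 8.39 ± 0.0096 to 7.11 ± 0.11 (-1.28 ± 0.097). Col8a1 (-0.97 ± 0.12) and Col1a2 (-0.89 ± 0.078) stayed short of 2-fold, and without iPS-MG replicate 1 the count called lower was 4. By the adjusted p alone 15 members passed, where 64.5% of all genes did. In the same comparison 7 of 16 fibroblast markers were lower, led by Ccdc80 at -2.96 and Fbln1 at -2.04, and 4 of 10 mural cell markers were lower. The iPSC had been grown on fibroblasts, and the part of those cells in the iPSC values was not tested.

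Processing genes split between the stem and the derived cells. In iPS-MG 6 of 21 processing genes were lower, led by Plod2 at -3.65 ± 0.075, Pcolce2 at -3.25 ± 0.085 and Pcolce at -2.81 ± 0.085, and 4 were higher, led by the prolyl hydroxylases P3h2 (2.56 ± 0.11) and P4ha1 (1.71 ± 0.058). Of 5 crosslinking genes, Lox was lower (-1.59 ± 0.097) and 0 were higher. The receptors Mrc1 (6.26 ± 0.10) and Lair1 (4.89 ± 0.085) were higher in iPS-MG, as were the degrading enzymes Mmp13 (2.37 ± 0.10), Mmp8 (2.25 ± 0.16) and the lysosomal protease Ctsk (1.92 ± 0.080). The receptor Ddr1 (-1.36 ± 0.067) and the metalloproteinase Mmp2 (-1.28 ± 0.086) were lower.

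Neural stem cells differed from iPSC in 8 of 42 collagen genes (19%), where 17.2% of all genes were called, 7.25% higher and 9.97% lower. Of these, 7 were lower and 1 was higher, and by the adjusted p alone 15 members passed, where 65.9% of all genes did. Col12a1 lay at 7.01, 7.06 and 7.07 in NSC, 3.71 ± 0.067 below iPSC (13.1-fold, limma adjusted p = 8.41e-25). Col18a1 lay at 7.91 ± 0.097, a difference of -2.53 ± 0.080. Col8a1 (-2.19 ± 0.12), Col1a2 (-1.70 ± 0.078) and Col10a1 (-1.25 ± 0.097) followed. Col5a2 at -1.10 and Col1a1 at -1.05 were near the 2-fold minimum, and became -0.98 and -0.94 when arrays were centred on their medians, which ended both calls. Fibroblast markers were lower in NSC in 8 of 16 cases with a list mean of 7.62 to 7.64, and Lox was lower too (-5.53 ± 0.097).

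Col28a1 was the exception. It encodes a beaded-filament-like collagen known from peripheral nerve. It lay at 9.99, 9.93 and 10.12 in NSC and at 7.71, 7.66 and 7.63 in iPSC, a difference of 2.35 ± 0.070 (5.09-fold, limma adjusted p = 2.78e-20). The group next to NSC was p-Mac at 8.09 ± 0.014, which is 1.92 lower (limma, adjusted p = 1.19e-18), and the other 6 groups lay between 7.66 and 7.85. Col18a1 was the corresponding case in iPSC: 10.44 ± 0.19 there, and 8.76 ± 0.12 in ad-MG as the next group, 1.68 lower (limma, adjusted p = 4.23e-16). From ad-MG down to iPS-MG no neighbouring step for Col18a1 passed. Of the processing genes, P3h2 (4.25 ± 0.11) and Colgalt2 led the 4 that were higher in NSC than in iPSC, while Pcolce2 (-3.09 ± 0.085), Pcolce (-3.04 ± 0.085) and Serpinh1 (-2.20 ± 0.073) were lower.

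Among the other myeloid cells no collagen gene reached 2-fold. Against bm-Mac, 0 of 42 members were called in neo-MG, where 5.23% of all genes were called, 2.1% higher and 3.12% lower. In p-Mac 0 were called, where 6.17% of all genes were, 1.73% higher and 4.44% lower. In DC 0 were called, where 8.08% of all genes were, 3.41% higher and 4.67% lower. These comparisons share the bm-Mac arrays. By the adjusted p alone (limma), 10 members passed in neo-MG, 5 of them higher, where 41.3% of all genes passed, 19% higher and 22.3% lower. The largest was Col8a1, at 8.46 ± 0.026 in neo-MG against 7.67 ± 0.038 in bm-Mac (0.79 ± 0.12), and Col12a1 differed by 0.34 ± 0.067. In p-Mac 29 members passed the adjusted p alone, 28 of them higher, where 64.2% of all genes passed, 36.6% higher and 27.6% lower. In DC 11 passed, 1 higher and 10 lower, where 46.6% of all genes passed, 22% higher and 24.5% lower. At an unadjusted p under 0.05 the counts were 11 in neo-MG, 31 in p-Mac and 13 in DC.

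Peritoneal macrophages showed a small offset, part of which was seen over all genes. The median difference from bm-Mac was 0.21 over the 42 members and 0.10 over all genes. The highest mean lay in p-Mac for 23 members, all of them among the 26 that were called in no pair of cell types. Replicate 3 held the highest of the 3 p-Mac values for 41 of the 42 members. On p-Mac replicates 1, 2 and 3 the array median was 8.38, 8.44 and 8.68 over members, and 8.38, 8.43 and 8.44 over all genes. Without replicate 3, a setting chosen after seeing the data, the median difference was 0.14 against 0.078 over all genes. Col14a1 had the largest difference, at 8.63, 8.77 and 8.77 in p-Mac against 8.02, 7.97 and 8.08 in bm-Mac (0.70 ± 0.093, limma adjusted p = 4.82e-07), followed by the cartilage chain Col9a2 at 0.44 ± 0.071. Col12a1 went the other way at -0.40 ± 0.067.

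In DC the member that stood apart was Col24a1, a minor fibrillar chain of developing bone and cornea, named after its values were seen. It lay at 8.48, 8.49 and 8.46 in DC and at 7.93, 8.02 and 8.04 in bm-Mac, a difference of 0.48 ± 0.086 (limma, adjusted p = 4.11e-05). The p-Mac arrays, at 7.98, 8.21 and 8.52, overlapped those of DC. Col18a1 (-0.47 ± 0.080), Col12a1 (-0.44 ± 0.067) and Col1a2 (-0.42 ± 0.078) were the lowest members in DC against bm-Mac.

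The 26 members called in no pair of cell types had group means within 0.35 to 0.84 of each other. They include 7 of the 11 fibrillar chains, the type IV chains other than Col4a1 and Col4a2, all transmembrane collagens and the type IX chains. Of these 26, 10 had every group mean under 8.38, the median of all values. By comparison 16 of 42 members were called in at least 1 of the 28 pairs, where 47.2% of all genes were. Col12a1 and Col8a1 were called in the most pairs, 14 of 28 each, followed by Col10a1 in 13 and Col1a2 in 11.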

How the data were processed

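The authors deposited 1 log2 value for each of 35556 probesets on each of 24 arrays, and the submitters' processing notes name RMA and Partek. The log base was inferred from the values (3.14 to 14.43), and the probe summary level and any filter are not given in the sources used here. Probesets were named from the platform annotation: 21218 carried 1 symbol, 1881 several and 12457 none, and only the first were used. Of them 21185 matched RefSeq by Entrez ID and 0 symbols changed. For 1386 genes with several probesets the one with the highest mean was kept.

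Cell types were compared with limma 3.58.1 (lmFit and eBayes, under R 4.3.3) in 1 fit to 24 arrays, with 1 mean per cell type. The number of arrays limits the precision. Tested on simulated data for ad-MG against neo-MG over 18820 genes, the script called 100% of 100 genes changed by 1.5 and of 100 changed by 2 (log2), and 0 unchanged genes. Both sizes lie well above the minimum of 1 and the simulated noise was independent between arrays. The run therefore checks the code only, and does not cover members near the minimum or replicates that are not independent. Replicate numbers were not treated as a pairing, since the labels state none. Same-numbered arrays' deviations from group means correlated between -0.26 and 0.25, and 15 of 84 pairs exceeded 0.1. These values cannot exclude a batch shared by arrays of the same number. Named were Col12a1, up to 8 called members each way in a comparison without overlapping arrays, partner chains, and up to 3 genes each way of the related lists; marker genes and other members were chosen after their values were seen. The members and lists were chosen with earlier results of these data known. Alternatives were centring, a second quantile normalization, a low-value filter, the mean over probesets, eBayes with trend and robust, the 2 groups alone, a replicate block, no 2-fold minimum and leaving out each array.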

Additional observations from a re-analysis of the deposited data

How the results depend on the processing

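Dropping the 2-fold minimum moved the counts most. Among all genes the adjusted p alone (limma) then passed 8338 in ad-MG against neo-MG, 12219 in ad-MG against NSC, 12146 in iPS-MG against iPSC, 40 in iPS-MG against neo-MG, 12407 in NSC against iPSC, 7772 in neo-MG against bm-Mac, 12086 in p-Mac against bm-Mac and 8764 in DC against bm-Mac. Among collagen genes it passed 23, 25, 15, 0, 15, 10, 29 and 11 in the same order. Every other alternative left each count of collagen genes and of all genes within 1.5 times its value. Leaving out 1 array gave 12 to 12 collagen genes in ad-MG against neo-MG, 15 to 15 in ad-MG against NSC, 3 to 4 in iPS-MG against iPSC, 8 to 8 in NSC against iPSC and 0 in the other 4, and 1045 to 1098 of all genes in ad-MG against neo-MG. With the replicate number as a block, which the labels do not state to be a pairing, the counts of collagen genes were again 12, 15, 3, 0, 8, 0, 0 and 0, and 8 of 24 arrays correlated best with their own number.

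Of 586 recomputed differences of named members, 573 kept their direction and side of the threshold, 6 passed only without the 2-fold minimum, 4 lost the call and 3 turned sign. The lost calls among these were Col1a1 and Col5a2 in NSC against iPSC, at -0.94 and -0.98 after centring and at -0.95 and -0.98 after a second quantile normalization. Col20a1 and Col6a3 in ad-MG against NSC, outside these differences, also lost their call after centring, which left 12 of 14 higher. The sign turned for Col11a2 in ad-MG against neo-MG without ad-MG replicate 1 (0.020) or 3 (0.0058), where leaving out 1 array gave -0.090 to 0.020,, and for Col5a1 with the mean over probesets (0.14). The cause was not tested. Centring moved the share of higher calls among all genes from 77.6% to 67.7% in ad-MG against neo-MG and from 59% to 49.4% in ad-MG against NSC, and shifted the median by -0.15 and -0.17 there, 0.11 in iPS-MG against iPSC and 0.12 in NSC against iPSC. The low-value filter kept 32 of 42 members. Without detection calls, low collagen levels cannot be told from background, and 3 arrays a group limit the precision.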
